A study of Rattus norvegicus with 23 samples.

Results

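Genes of the mitochondrial respiratory chain were followed in the lungs of elderly rats that had inhaled an aerosol of nanostructured titanium dioxide (TiO2). They were chosen by symbol, as array features named Ndufa, Ndufb, Ndufc, Ndufs or Ndufv, Uqcr, Sdha to Sdhd, Cox4 to Cox8, or Atp5. The rule found 96 of the 25597 named genes on the array, measured by 138 probes. Sorted into complexes by symbol, these were 39 genes of complex I, 8 assembly factors of complex I, 4 genes of complex II, 8 of complex III, 17 of complex IV and 16 of complex V. The other 4 carry such symbols without being core subunits, namely Ndufa4l2, Cox7a2l, Atp5if1 and the pseudogene Cox6c-ps1. The filter on low signal left 95 genes. It removed Cox8c, a testis form of a complex IV subunit, which was not well above background on any array.

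The respiratory chain sits in the inner mitochondrial membrane. Complexes I and II take electrons from NADH and succinate, complex III passes them to cytochrome c, and complex IV passes them to oxygen. Complexes I, III and IV pump protons, and complex V, the ATP synthase, uses the proton gradient to make ATP. Most subunits are encoded in the nucleus, while a small set is encoded by mitochondrial DNA (mtDNA). Several complex IV subunits exist in a ubiquitous form and in a form typical of heart and skeletal muscle. In the lung, type II pneumocytes, which make surfactant, are rich in mitochondria.

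All rats were male F344 rats aged 19 months, treated by nose-only inhalation for 6 hours a day, 5 days a week, over 4 weeks. The exposed rats breathed TiO2 at 10 mg/m3 and the control rats filtered air. Lungs were collected when exposure ended (D0, 6 control and 5 exposed rats) or 28 days later (D28, 6 control and 6 exposed rats). RNA of the accessory lobe was hybridised to 1-colour arrays, 1 rat per array. For the 6 exposed D28 arrays the source label reads day 0, but titles and descriptions read day 28, and they were placed there. The 23 arrays came on 5 slides, 1 of which carried a single control array of D28, that of rat 4. This array was also the only one whose file names a later version of the scanner software. Its 75th percentile of the processed signal, 3470, was the highest of all arrays. Per array, 69.5% to 77.9% of spots were well above background. All levels below are log2 signals after quantile normalization, and a fold change (FC) compares group means. Differentially expressed genes (DEGs) passed a FC of 1.5 in either direction with a limma adjusted p below 0.05. The limma p-values set a difference of group means against the spread between the arrays of a group, 1 rat each, moderated over all genes. No slide term was fitted in the main test, so that spread also holds differences between slides. In whole lung tissue, fewer cells of a type and less RNA per cell cannot be told apart.

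On D0, 1 of the 95 genes was a DEG. Cox8b, the muscle form of complex IV subunit VIII, was 1.73-fold lower in the exposed rats. Among all 23032 genes tested, 1.78% (411) were DEGs. At an unadjusted p below 0.05 there were 6 respiratory chain genes, Cox7a1, Cox8b, Ndufa7, Ndufaf3, Ndufb4 and Ndufv2, each with a lower mean in exposed rats, where 11.9% of all genes passed that limit. The exposed and control rats did not overlap in 5 genes, Atp5f1e, Cox7a1, Ndufaf2, Ndufaf3 and Ndufv2, each lower in exposed rats, against 4.31% of all genes in either direction. The log2 FC was below 0 in 72 of the 95 genes, with a median of -0.059. Over all genes tested it was below 0 in 50.1%, with a median of -0.00075. The SE of a single respiratory chain gene had a median of 0.093, which bears on 1 gene and not on the median over the 95. The mean over the 95 genes per rat was 12.03 (SD 0.055) in control and 11.95 (SD 0.033) in exposed rats, with overlap.

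On D28, limma found no DEG among the 95 genes, where 0.755% of all genes (174) were DEGs. At an unadjusted p below 0.05 there were 4 genes, Cox8b, Ndufaf2, Ndufaf4 and Ndufb10, each with a lower mean in exposed rats, against 11.0% of all genes. Cox8b alone had groups without overlap, against 1.22% of all genes. The log2 FC was below 0 in 62 of the 95 genes, with a median of -0.034, and the median over all genes was -0.0056. With the slide as a fixed block it was below 0 in 53 of the 95 and the medians were -0.0074 and -0.0089, and without exposed rat 3 of D28 it was below 0 in 57 and they were -0.011 and -0.010.

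The difference between the effects on D0 and D28 passed both limits for none of the 95 genes in limma, where 0.0304% of all genes (7) passed. At an unadjusted p below 0.05 it held for Cox7a1 alone, where 3.44% of all genes passed.

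Most of these genes were measured with a narrow spread between the rats of a group. The SD within groups had a median of 0.138 on the log2 scale, against 0.317 over all genes tested. It ran from 0.057 for Ndufb9 to 0.566 for Ndufs4, both accessory subunits of complex I. On D0 the 95% interval of the log2 FC lay inside the FC limit on both sides for 89 of the 95 genes, and for 50.4% of all genes. The 6 others were Cox8b, Ndufs4, Ndufa4l2, Ndufaf2, Ndufb3 and Cox6c-ps1. On D28 the interval lay inside the limit for 88 of the 95, and the 7 others were Cox8b, Ndufs4, Ndufa4l2, Ndufaf2, Ndufaf4, Ndufa10 and Cox6c-ps1. The mean log2 signal of the 95 genes was 12.03 in the control rats of D0. The comparisons of SD and interval with all genes were not matched for signal.

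**Figure D1:**
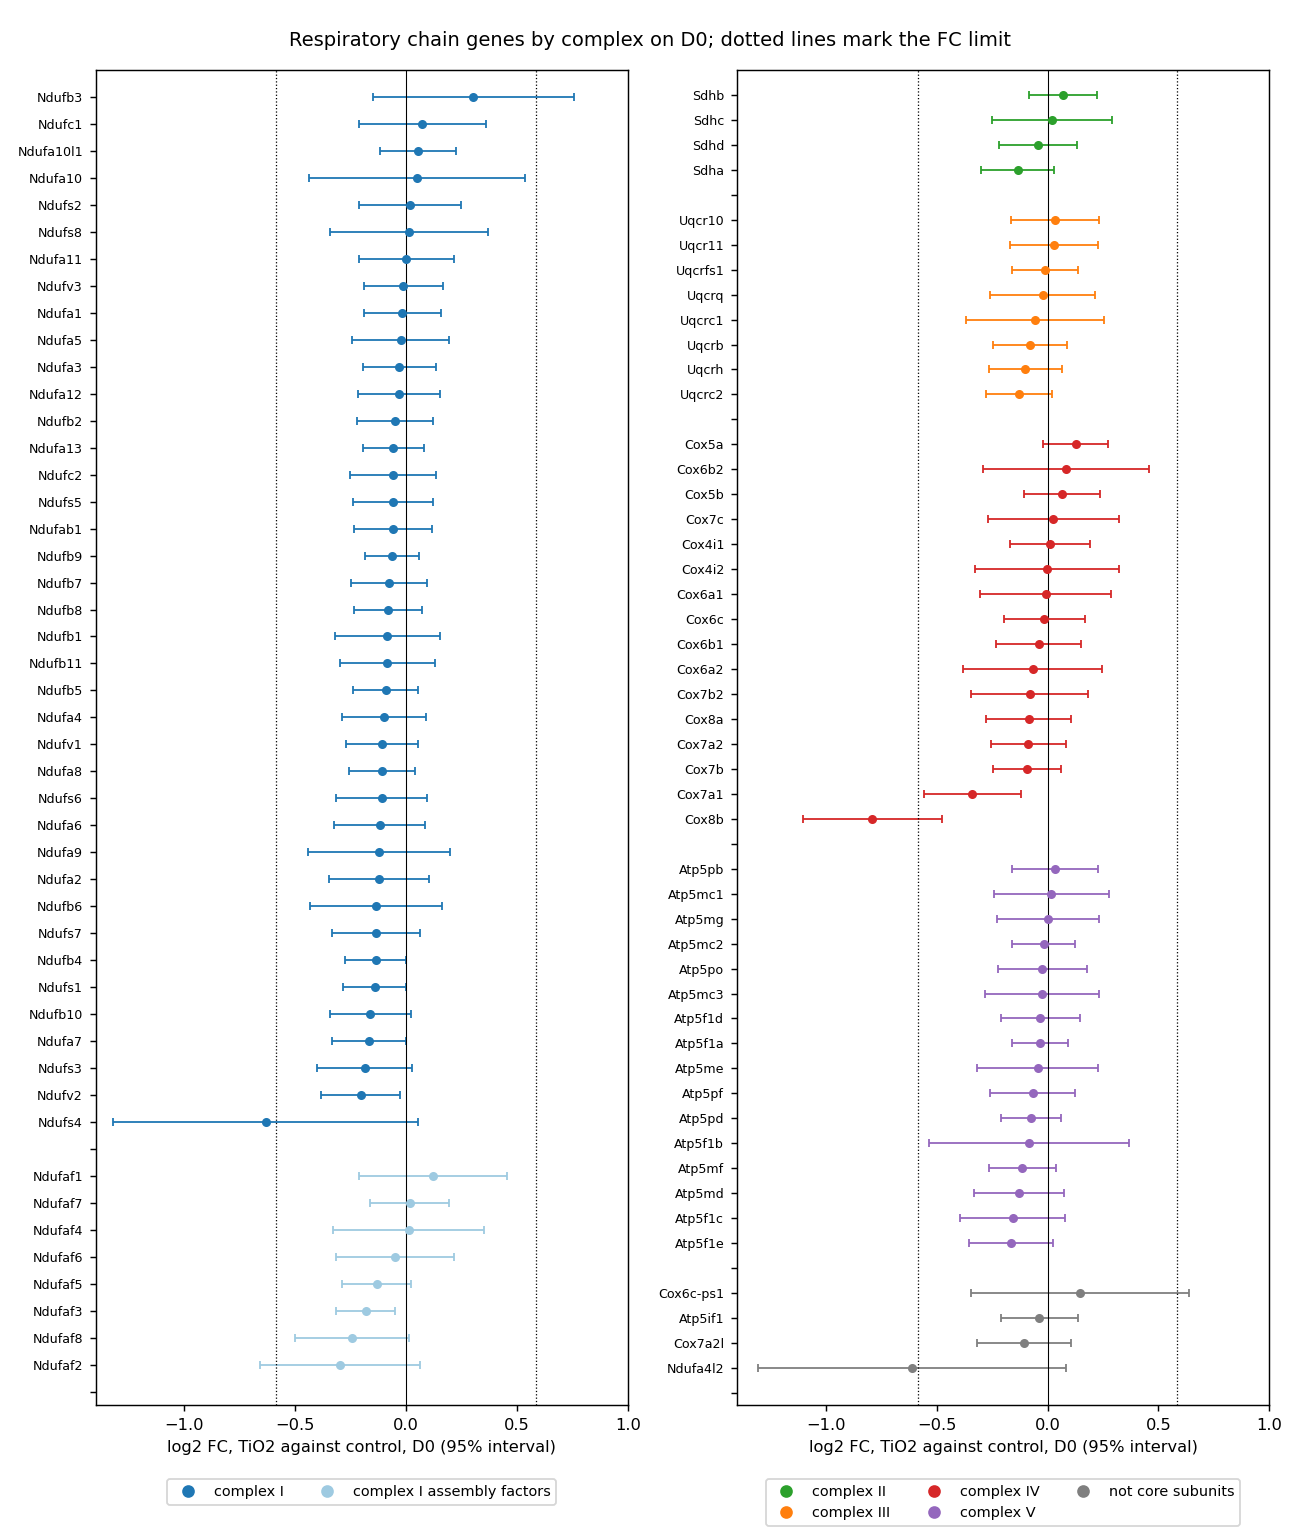
Each point is the log2 FC of TiO2 against control rats on D0 (x axis) of 1 respiratory chain gene, grouped by complex, with its 95% interval from limma and dotted lines at a FC of 1.5 in either direction. Cox8b stands lowest at -0.79, most other points lie close to 0, and Ndufs4 and Ndufa4l2 have wide intervals.

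Complex IV held the gene that changed. Its subunits VIII, VIIa and VIa each have a muscle form (Cox8b, Cox7a1 and Cox6a2) and a ubiquitous form (Cox8a, Cox7a2 and Cox6a1). The promoters of the muscle forms are shown with those of Cox4i1 and Atp5me, which encode ubiquitous subunits, because they hold different motifs. They run from 250 bases before to 50 after the RefSeq start of transcription, build GRCr8, 5′ to 3′ on the strand of the gene. Capitals mark, on either strand, the ETS core CCGGAAG bound by GABPA, the NRF-1 core, and the E-box CAGCTG bound by myogenic factors.
Cox8b, chr1:205408224-205408523, minus strand: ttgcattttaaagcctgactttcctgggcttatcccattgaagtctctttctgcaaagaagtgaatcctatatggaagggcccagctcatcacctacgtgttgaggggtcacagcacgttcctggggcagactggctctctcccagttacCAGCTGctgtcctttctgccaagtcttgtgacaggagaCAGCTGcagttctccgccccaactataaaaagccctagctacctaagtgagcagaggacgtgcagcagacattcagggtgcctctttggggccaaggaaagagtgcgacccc
Cox7a1, chr1:94568966-94569265, plus strand: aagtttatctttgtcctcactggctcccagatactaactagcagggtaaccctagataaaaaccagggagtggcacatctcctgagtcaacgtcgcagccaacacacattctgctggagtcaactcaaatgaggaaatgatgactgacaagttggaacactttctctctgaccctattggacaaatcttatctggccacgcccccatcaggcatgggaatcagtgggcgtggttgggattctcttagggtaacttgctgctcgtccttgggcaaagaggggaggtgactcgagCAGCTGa
Cox6a2, chr1:192219667-192219966, minus strand: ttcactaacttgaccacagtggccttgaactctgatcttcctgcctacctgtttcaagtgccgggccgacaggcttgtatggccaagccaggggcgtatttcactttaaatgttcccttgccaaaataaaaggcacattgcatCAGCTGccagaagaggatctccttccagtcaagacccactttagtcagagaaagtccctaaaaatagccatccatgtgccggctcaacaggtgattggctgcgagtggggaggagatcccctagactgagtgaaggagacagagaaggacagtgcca
Cox4i1, chr19:65630133-65630432, plus strand: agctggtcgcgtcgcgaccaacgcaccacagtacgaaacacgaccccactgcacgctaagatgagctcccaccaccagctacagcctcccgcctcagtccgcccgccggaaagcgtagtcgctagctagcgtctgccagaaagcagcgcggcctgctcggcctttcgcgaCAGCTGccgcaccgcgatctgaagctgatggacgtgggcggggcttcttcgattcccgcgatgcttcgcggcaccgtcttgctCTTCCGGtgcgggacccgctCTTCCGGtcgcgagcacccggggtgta
Atp5me, chr14:1464610-1464909, plus strand: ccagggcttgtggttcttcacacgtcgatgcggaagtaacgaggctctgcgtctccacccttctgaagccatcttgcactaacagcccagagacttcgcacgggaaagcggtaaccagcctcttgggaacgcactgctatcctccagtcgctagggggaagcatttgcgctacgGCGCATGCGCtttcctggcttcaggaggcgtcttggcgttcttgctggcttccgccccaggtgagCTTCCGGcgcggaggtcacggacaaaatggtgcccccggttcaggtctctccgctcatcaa

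Of the 96 genes, 84 had a promoter in the RefSeq table. The ETS core was in 23 of these (27.4%) and in 9.22% of all 27457 promoters of the same length. The NRF-1 core was in 6 (7.14%) and in 0.932% of all promoters. The E-box, a motif chosen after the values of Cox8b were seen, was in 13 (15.5%) and in 15.1% of all promoters. It occurred 2 times in Cox8b, at -100 and -62 from the start, and 1 time each in Cox7a1, Cox6a2 and Cox4i1. The windows of Cox8b, Cox7a1 and Cox6a2 held neither the ETS nor the NRF-1 core, which was also true of most of the 84. Cox4i1 held 2 ETS cores and Atp5me 1 of each kind, and both were picked for display because of their motifs. The median log2 FC on D0 was -0.044 in the 28 tested genes with an ETS or NRF-1 core and -0.081 in the 55 with neither, and on D28 it was -0.036 and -0.021.

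Cox8b was measured by 1 probe, at chr1:201057325-201057384 on the minus strand in the rn4 coordinates of the array files. On D0 the control rats had log2 signals of 10.16 to 10.99 (median 10.52), and the exposed rats had 10.20, 9.59, 9.91, 9.56 and 9.55. Of the 5 exposed rats, 4 were below every control rat, and the fifth was above the lowest one. The log2 FC on D0 was -0.79 (SE 0.15, 95% interval -1.10 to -0.48, limma adjusted p = 0.00438). On D28 the control rats had 10.49 to 11.00 (median 10.66) and the exposed rats 9.94 to 10.49 (median 10.19). Every exposed rat of D28 was below every control rat, though the nearest pair were equal to the second decimal.

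The log2 FC of Cox8b on D28 was -0.49 (SE 0.14, unadjusted p = 0.00255, adjusted p = 0.108 from limma). The effects of the days differed by 0.30 (SE 0.21, unadjusted p = 0.165 from limma), so a smaller effect on D28 was not shown. Between slides the direction held. The exposed minus control difference was -1.14 to -0.50 on the 4 slides with both groups of D0, and -1.02 to -0.24 on the 3 such slides of D28. With any 1 array left out, the D0 value stayed between -0.90 and -0.70, with adjusted p of 0.00261 to 0.0169.

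Cox7a1, the muscle form of subunit VIIa, had a lower mean in the exposed rats of D0 without passing the test. The control rats had 9.04 to 9.33 (median 9.27), and the exposed rats had 8.77, 8.97, 8.90, 8.94 and 8.75. These groups did not overlap. The log2 FC on D0 was -0.34 (SE 0.11, unadjusted p = 0.00399, adjusted p = 0.0954 from limma). On D28 the control rats had 8.62 to 9.31 (median 9.07) and the exposed rats 8.80 to 9.19 (median 9.04), with all exposed rats inside the control range. The log2 FC on D28 was 0.0046 (SE 0.10). The effects of the days differed by 0.34 (SE 0.15, unadjusted p = 0.0274, adjusted p = 1.000 from limma).

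The 3 probes of Cox7a1 gave different values on D0, with the widest range between probes (0.58) of the 33 genes with several probes. Tested as single probes, probe 1 had a log2 FC of -0.59 (limma adjusted p = 0.00904), which passed both limits. Probe 2 had -0.0041 and probe 3 had -0.43 (limma adjusted p = 0.0439), a FC under the limit. Probe 2 also had the lowest signal, 5.48 to 6.33 in the control rats of D0. Probes 1 and 3 had 8.87 to 9.33 and 12.44 to 12.96 in these rats. The values of the gene average the 3 probes with equal weight. Exposed and control rats of D0 did not overlap at probes 1 and 3 and overlapped at probe 2. All 3 are named Cox7a1 in the newer annotation of the array and carry a locus or transcript name in the older one. For the mean of the probes, adjusted p was below 0.05 under 8 of 14 other settings, never with a FC of 1.5.

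**Figure D2:**
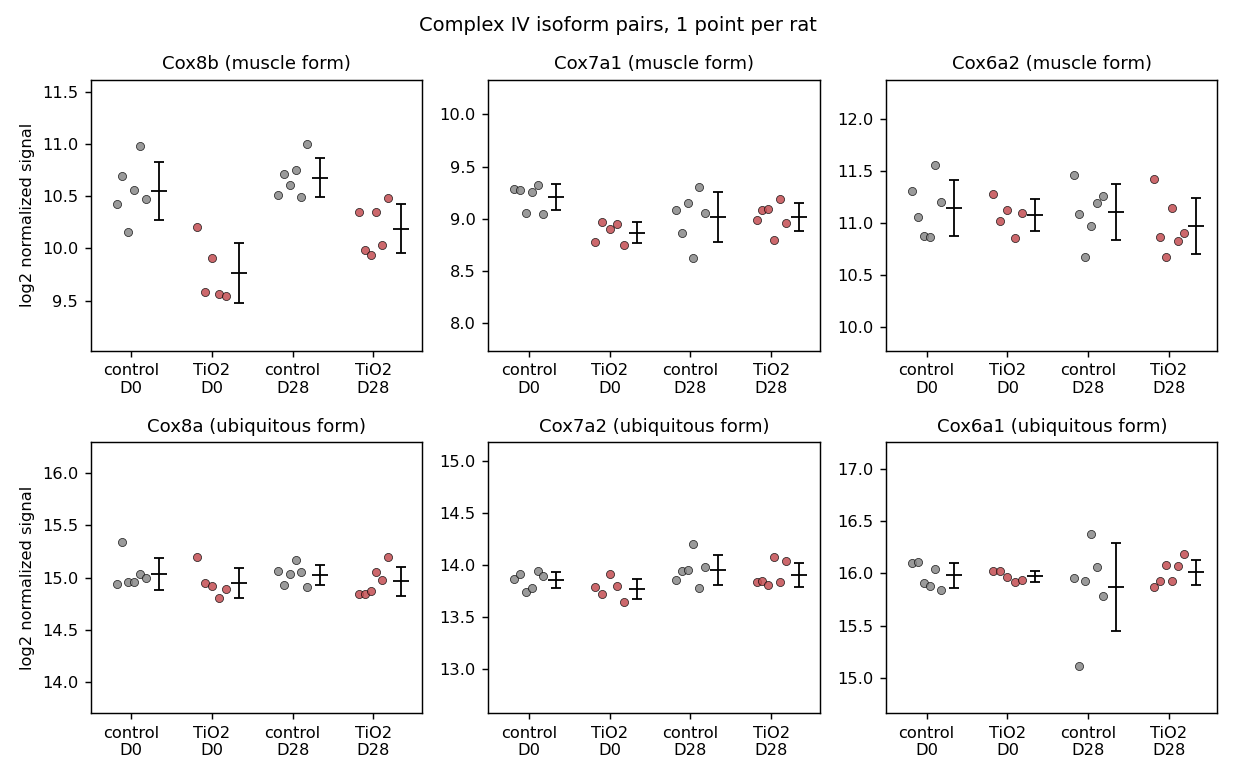
Log2 normalized signal (y axis) of the muscle forms (top) and ubiquitous forms (bottom) of 3 complex IV subunits in each rat of the 4 groups (x axis), with the mean and SD beside the points. The exposed rats lie lower for Cox8b on both days and for Cox7a1 on D0, while the groups of Cox6a2, Cox8a, Cox7a2 and Cox6a1 overlap on both days.

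**Figure D3:**
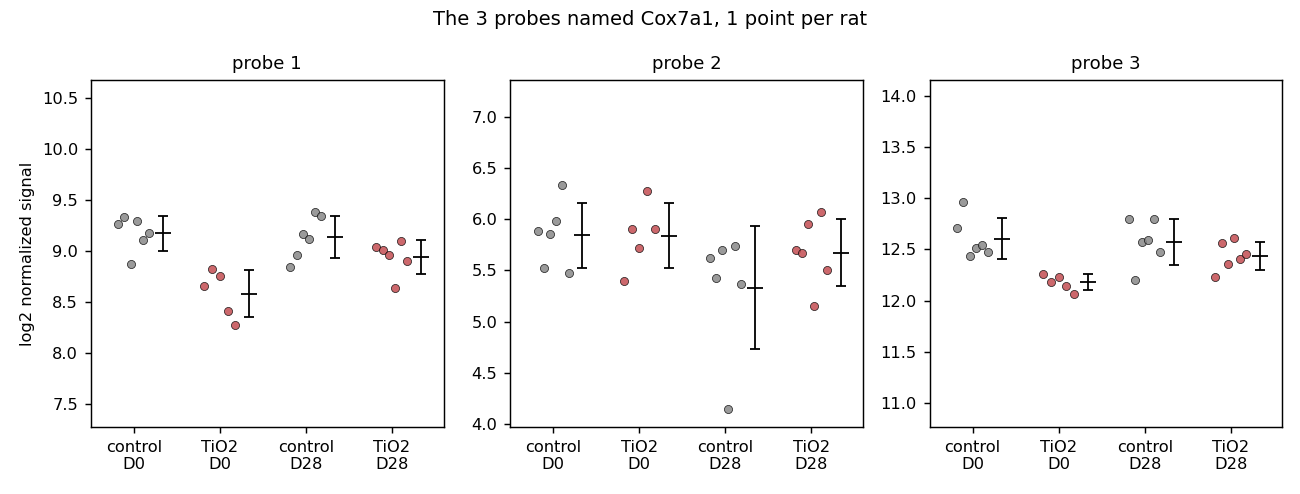
Log2 normalized signal (y axis) of each of the 3 probes named Cox7a1 in every rat of the 4 groups (x axis), with the mean and SD beside the points. On D0 the exposed rats are below all control rats at probes 1 and 3 and overlap with them at probe 2.

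Cox6a2, the muscle form of subunit VIa, had 10.86 to 11.55 (median 11.13) in the control rats and 11.28, 11.02, 11.12, 10.86 and 11.09 in the exposed rats of D0, with overlap. Its log2 FC was -0.067 on D0 (95% interval -0.38 to 0.25) and -0.13 on D28 (-0.43 to 0.16). The ubiquitous form Cox8a had -0.085 on D0 (-0.28 to 0.10) and -0.064 on D28. Cox7a2 had -0.086 (-0.25 to 0.083) and -0.049, and Cox6a1 had -0.0089 (-0.31 to 0.29) and 0.14. For these 4 genes a FC of 1.5 lay outside the interval on D0.

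The other complex IV genes had log2 FC near 0. Cox4i1, the ubiquitous form of subunit IV, had 15.04 to 15.42 (median 15.23) in the control rats and 15.35, 15.24, 15.15, 15.35 and 15.15 in the exposed rats of D0. All exposed rats lay inside the control range, and the log2 FC was 0.011 (SE 0.087) on D0 and 0.020 (SE 0.083) on D28. Cox4i2, the form of subunit IV known from lung, had -0.0035 on D0 (-0.33 to 0.32) and -0.13 on D28. Cox5a, a subunit of the matrix side, had the highest log2 FC of the complex on D0, 0.13 (SE 0.071, adjusted p = 0.552 from limma). Cox6b1, the ubiquitous form of subunit VIb, had -0.040 and -0.021, and Cox6b2, its testis form, had 0.083 and -0.20. Cox7b2 was not well above background on any array.

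Markers of cardiac muscle, which in rats extends along the pulmonary veins, had lower means together with Cox8b. Of 14 listed genes 13 were tested, and all 13 had a log2 FC below 0 on D0 (median -0.56), while 11 of the 13 were below 0 on D28 (median -0.25). At an unadjusted p below 0.05 in limma, 11 of the 13 were lower on D0 and 5 on D28. The shares of all genes in either direction were 11.9% and 11.0%. Myl7, the atrial myosin light chain, was a DEG on both days (-0.60 and -0.63, adjusted p = 0.00989 and 0.0107 from limma), but on D0 it was a DEG under only 10 of 15 other settings, and on D28 under 12. Tnni3, cardiac troponin I, was past the adjusted p limit on both days under a FC of 1.5 (-0.47 and -0.49), and Actc1 (-0.43) and Tnnt2 (-0.56) on D28. These calls were close to the limit. With 1 array left out in turn, Tnni3 stayed past it in 6 of 23 fits on D0 and 5 on D28. On D28 Actc1 stayed past it in 5 of the 23 and Tnnt2 in 12. The signals of the 13 genes added up to 11584 to 16989 in control and 8604 to 12323 in exposed rats of D0. On D28 the sums were 12336 to 16927 and 9364 to 12937. Of the defining markers, Nppa was not well above background on any array and Myh6 did not pass the filter.

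Other cells that use these muscle forms were checked with the same kind of list. The 9 skeletal muscle markers, of which Ckm is also in the cardiac list, had none past an unadjusted p of 0.05 in limma on either day, and 2 rats stood apart. Their mean log2 signal was 9.55 in control rat 5 of D0 and 9.57 in exposed rat 1 of D28, and lay between 5.10 and 7.19 in the other 21 rats. The difference of exposed from control rats in this mean was -0.94 on D0 and -0.35 without that control rat, and 0.58 on D28 and -0.10 without that exposed rat. The same 2 rats had the highest mean of the cardiac markers in their groups. Control rat 5 of D0 had 8.93, against 8.15 to 8.47 in the other control rats of D0. Exposed rat 1 of D28 had 8.49, against 7.90 to 8.14 in the other exposed rats of D28. The 4 brown fat markers had medians of -0.16 and 0.019, none past an unadjusted p of 0.05, and Ucp1 was well above background on 2 to 4 arrays of a group. The part of these cells in the values of Cox8b was not tested.

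Complex I, which oxidises NADH, had no DEG among its 39 genes. At an unadjusted p below 0.05 in limma there were 3 on D0 and 1 on D28, against 11.9% and 11.0% of all genes. The log2 FC was below 0 in 32 genes on D0 (median -0.081) and in 29 on D28 (median -0.045). The mean over the complex was 12.06 to 12.22 in control and 12.00 to 12.11 in exposed rats of D0, and 2 of the 5 exposed rats were below all control rats. Ndufa1, an accessory subunit, had 13.87 to 14.10 (median 13.94) in the control rats and 13.93, 13.94, 14.10, 13.85 and 13.91 in the exposed rats of D0. The groups overlapped, with a log2 FC of -0.019 (SE 0.083) on D0 and -0.036 (SE 0.080) on D28.

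Of the complex I genes, Ndufv2, an iron-sulphur subunit of the NADH-oxidising module, had 13.34 to 13.56 (median 13.47) in the control rats and 13.31, 13.29, 13.17, 13.26 and 13.23 in the exposed rats of D0. These groups did not overlap, and the log2 FC was -0.21 (SE 0.085, unadjusted p = 0.0254, adjusted p = 0.288 from limma). On D28 it was 0.022 (SE 0.081). The accessory subunits Ndufa7 (-0.17, unadjusted p = 0.0482) and Ndufb4 (-0.14, unadjusted p = 0.0497 from limma) overlapped between groups on D0. Ndufb10, another accessory subunit, had 12.98 to 13.34 (median 13.11) in the control and 12.65 to 13.07 (median 12.85) in the exposed rats of D28, where 4 of 6 exposed rats were below all control rats. Its log2 FC was -0.24 (SE 0.084, unadjusted p = 0.00878, adjusted p = 0.203 from limma), and -0.16 on D0.

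The extremes of complex I were genes with a large spread. Ndufs4 and Ndufa10 also had low signals, where the mean over the complex was 12.14 in control rats of D0. Ndufa10 had at most 6.53 in the exposed rats of D28. Ndufs4 had the lowest log2 FC of the complex on both days, -0.63 (SE 0.33, adjusted p = 0.494 from limma) and -0.36 (SE 0.31). Its control rats of D0 had 5.73 to 6.37 (median 6.10) and its exposed rats 5.79, 6.07, 5.34, 4.65 and 5.42, which overlapped. With another background correction (normexp) the values were -0.30 on D0 and -0.15 on D28, and on D28 they ran from -0.16 without exposed rat 4 to -0.55 without control rat 6. Ndufb3 had the highest value on D0, 0.30 (SE 0.22), and Ndufa10 the highest on D28, 0.44 (SE 0.22). Without exposed rat 6 of D28, the value of Ndufa10 was 0.22, and 1 of its 2 probes was well above background on only 1 of the 23 arrays. Ndufa4, named for complex I and since assigned to complex IV, was counted here with complex I and had -0.10 and -0.085.

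The 8 assembly factors of complex I, which help to build it and do not stay in it, had medians of -0.092 on D0 and -0.10 on D28. Ndufaf2 had the lowest log2 FC of them on both days. Its control rats of D0 had 10.31 to 10.68 (median 10.45) and its exposed rats 10.13, 10.20, 10.23, 10.01 and 10.20, with no overlap. The log2 FC was -0.30 on D0 (SE 0.17, adjusted p = 0.587) and -0.44 on D28 (SE 0.16, adjusted p = 0.251 from limma). Without exposed rat 6, at 9.07, the D28 value was -0.24. Ndufaf3 had 11.12 to 11.34 (median 11.23) in the control rats and 11.09, 11.09, 11.04, 10.94 and 11.04 in the exposed rats of D0, with no overlap. Its log2 FC was -0.18 on D0 (SE 0.064, unadjusted p = 0.00921, adjusted p = 0.161 from limma) and -0.019 on D28. Ndufaf4 had -0.39 on D28 (adjusted p = 0.306 from limma), but its 4 probes ranged over 1.10, the widest range of that day. Ndufaf1 was highest on D0 (0.12) and Ndufaf7 on D28 (0.12).

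Complex II, which oxidises succinate, had 4 genes without a value past an unadjusted p of 0.05. Sdha, the flavoprotein with the active site, had -0.13 (SE 0.079) on D0 and -0.065 (SE 0.075) on D28. Sdhb, the iron-sulphur subunit, had 0.071 and 0.12 (SE 0.074 and 0.070). The membrane anchors Sdhc and Sdhd had 0.021 and -0.043 on D0, and 0.13 and 0.050 on D28. On both days the groups overlapped for all 4 genes.

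Complex III, which hands electrons to cytochrome c, had medians of -0.039 on D0 and -0.031 on D28 over 8 genes. None reached an unadjusted p of 0.05 in limma on either day. Uqcrc2, a core protein, had the lowest log2 FC on D0, -0.13 (SE 0.071), and 4 of 5 exposed rats were below all control rats. Uqcrc1, the other core protein, had -0.056 on D0 and the highest value of D28, 0.17 (SE 0.14). Uqcr10 was highest on D0 (0.033). Uqcrb and Uqcrh, small subunits, had -0.11 and -0.11 on D28.

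Complex V, the ATP synthase, had 13 of 16 genes below 0 on D0 (median -0.040) and 9 on D28 (median -0.025), none past an unadjusted p of 0.05 in limma. Atp5f1e, the epsilon subunit of the catalytic part, had the lowest log2 FC on both days. Its control rats of D0 had 14.77 to 14.97 (median 14.87) and its exposed rats 14.54, 14.77, 14.75, 14.69 and 14.77. The groups had no overlap, though the nearest pair were equal to the second decimal. The log2 FC was -0.16 on D0 (SE 0.090, adjusted p = 0.538 from limma) and -0.16 on D28 (SE 0.086), when the groups overlapped. Atp5f1a, the alpha subunit, had -0.035 and 0.10, and Atp5f1b, the beta subunit, -0.084 and 0.085. Atp5pb, a stalk subunit, was highest on D0 (0.034). Atp5mc1, Atp5mc2 and Atp5mc3, which encode the same mature subunit of the membrane ring, had 0.017, -0.018 and -0.024 on D0. On D28 they had -0.061, 0.018 and 0.036.

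Outside the complexes, Ndufa4l2, known for its induction in low oxygen, had 5.33 to 6.22 (median 5.86) in the control rats and 5.22, 5.55, 5.10, 4.73 and 5.34 in the exposed rats of D0, with overlap. Its log2 FC was -0.61 on D0 (SE 0.33, adjusted p = 0.537 from limma) and -0.46 on D28 (SE 0.32). With normexp these were -0.26 and -0.20, and on D28 it was -0.17 without exposed rat 4 and -0.25 without control rat 1. Cox7a2l, a factor of supercomplex assembly, had -0.11 and 0.011, and Atp5if1, the inhibitor of ATP hydrolysis by complex V, -0.038 and 0.050.

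The exposure contrasts of D0 and D28 share no array. The log2 FC had the same sign on both days in 65 of the 95 genes (68.4%), below 0 in 52 and above 0 in 13, against 63.0% of all genes tested. By complex it had the same sign in 30 of 39 genes of complex I, 11 of 16 of complex IV and 8 of 16 of complex V. The mean over the 95 genes was 11.97 to 12.12 in control and 11.91 to 11.99 in exposed rats of D0. It was 11.98 to 12.07 and 11.94 to 12.04 on D28, and the groups overlapped on both days. Exposed minus control was below 0 on 4 of 4 slides on D0 (-0.13 to -0.023) and on 1 of 3 slides on D28 (-0.076 to 0.017).

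**Figure D4:**
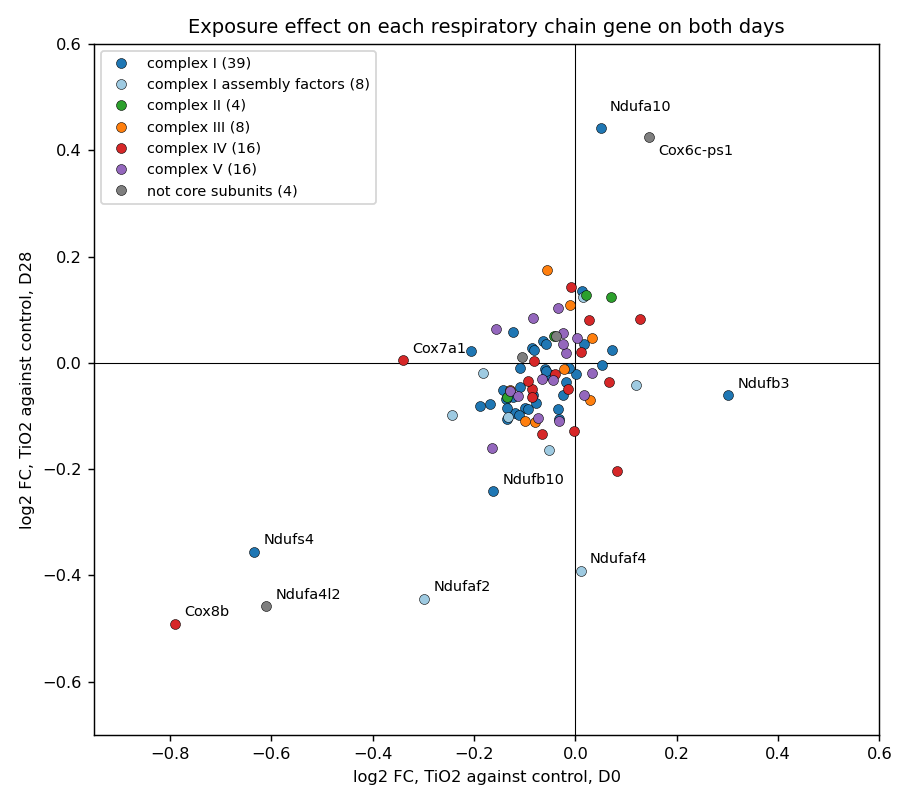
Log2 FC of TiO2 against control rats on D0 (x axis) and on D28 (y axis), 1 point per gene and 1 colour per complex. Cox8b is lowest on both days at -0.79 and -0.49, Cox7a1 is at -0.34 on D0 and near 0 on D28, and most genes lie in a dense group around 0.

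Between D28 and D0 in the control rats, limma found no DEG among the 95 genes, where 0.608% of all genes were DEGs, and the median log2 FC was 0.0041. At an unadjusted p below 0.05 there were 7 genes, where 13.3% of all genes passed. Ndufb10 had a higher mean on D28 (0.24), and 6 genes had a lower one. Among them were 3 genes of the complex V catalytic part, Atp5f1a (-0.15), Atp5f1b (-0.53) and Atp5f1c (-0.33). The other lower genes were Ndufaf7 (-0.22), Ndufs8 (-0.36) and Uqcrc1 (-0.34). Atp5f1d and Atp5f1e, also of the catalytic part, were not among the 7.

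In the exposed rats limma found no DEG between the days either, where 0.352% of all genes were DEGs, and the median was 0.039. At an unadjusted p below 0.05 there were 4 genes, Atp5if1, Cox8b, Ndufaf5 and Ndufaf8, each with a higher mean on D28, where 7.71% of all genes passed. Cox8b had 0.43 (SE 0.15, adjusted p = 0.393 from limma).

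The 13 subunits encoded by mtDNA, which the symbol rule does not take in, all had a log2 FC above 0 on D0 (median 0.11), with none past an unadjusted p of 0.05 in limma. The values ran from 0.024 for ND5, a complex I subunit, to 0.22 for COX2, a complex IV subunit. On D28, 11 of the 13 were below 0 (median -0.092). ND5 alone passed an unadjusted p of 0.05 (-0.28, adjusted p = 0.437 from limma), against 11.0% of all genes. The mean over the 13 was 14.17 to 14.61 in control and 14.37 to 14.74 in exposed rats of D0, which overlapped. Exposed minus control was -0.058 to 0.44 over the 4 slides of D0 and -0.14 to -0.069 over the 3 slides of D28. These subunits are cut from shared transcripts and are not independent of each other. The difference between the days was past both limits for none of them in limma, and 1 passed an unadjusted p of 0.05, where 3.44% of all genes did.

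**Figure D5:**
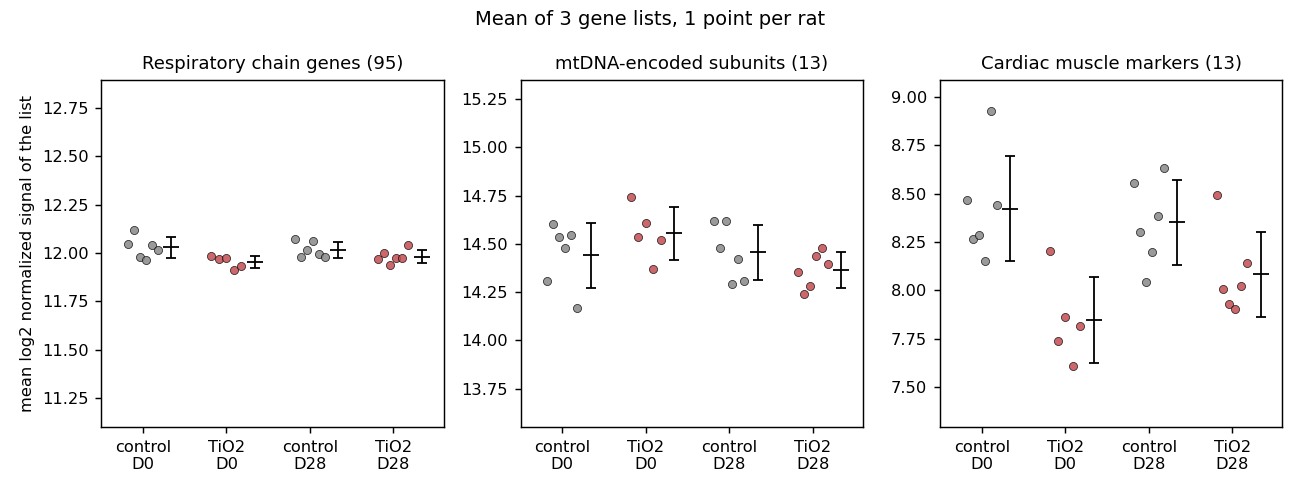
Mean log2 normalized signal per rat (y axis) of the 95 respiratory chain genes, the 13 mtDNA-encoded subunits and the 13 cardiac muscle markers in the 4 groups (x axis), with the mean and SD beside the points. The mean of the respiratory chain genes has the narrowest spread, but it averages more genes than the other means. For the cardiac markers 4 of the 5 exposed rats of D0 are below all control rats.

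A list of 14 regulators of mitochondrial genes, of mtDNA copying and transcription and of the response to low oxygen had no member past an adjusted p of 0.05 on either day. At an unadjusted p below 0.05 in limma it held 2 genes on D0 and 1 on D28, against 11.9% and 11.0% of all genes. Ppargc1a, a coactivator of mitochondrial genes, had -0.88 on D0 (SE 0.25, adjusted p = 0.0564 from limma) and -0.13 on D28. Esrra, a nuclear receptor that works with it, had 0.24 and 0.12. Gabpa, which binds the ETS core, had -0.24 and -0.30, Nrf1 0.052 and -0.043, and Tfam, which packages and transcribes mtDNA, -0.0074 and -0.059.

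In the neighbouring pathways, none of the 18 TCA cycle genes, 11 carriers, 9 electron carriers and partners, and 38 other assembly factors had an adjusted p below 0.05 on either day. At an unadjusted p below 0.05 in limma these lists held 4, 2, 0 and 1 genes on D0, against 11.9% of all genes, and 3, 0, 0 and 4 on D28, against 11.0%. Of 75 mitochondrial ribosome genes, Mrpl14 alone was past the adjusted p limit on D0 (-0.47, adjusted p = 0.00407 from limma), with a list median of -0.0026, and its FC was under 1.5. Of 21 glycolysis genes, 18 had a log2 FC above 0 on D0 (median 0.14) and 16 on D28 (median 0.078). At an unadjusted p below 0.05 in limma, 6 were higher and 1 lower on D0, and 5 were higher on D28. The shares of all genes were 11.9% and 11.0%. Hk3, a hexokinase typical of myeloid cells, was a DEG on D0 (0.76, SE 0.10, adjusted p = 0.000219 from limma) and had 0.51 on D28 (adjusted p = 0.00926). Aldoc, an aldolase, had 0.42 on D28 (adjusted p = 0.0452).

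Markers of lung cells are given beside these values. All 8 markers of type II pneumocytes had a log2 FC above 0 on D0 (median 0.24) and 7 on D28 (0.19), while all 6 of type I pneumocytes (-0.26 and -0.25) and all 7 of ciliated cells (-0.29 and -0.39) were below 0 on both days. All 6 endothelial (-0.16 and -0.33) and all 5 erythroid markers (-0.41 and -0.49) were also below 0 on both days, as were all 10 of smooth muscle and pericytes on D0 (-0.27) and 6 on D28 (-0.16). Of 9 macrophage markers, 6 had a log2 FC above 0 and 3 below 0 on each day, with list medians of 0.53 and 0.19. Siglec1 (0.89) and Chi3l1 (1.19) were DEGs on D0, and Chi3l1 on D28 (0.95, adjusted p = 0.0371 from limma), a call lost with 9 of the 23 arrays left out in turn. Ear1, a ribonuclease, had the lowest value on D0 (-1.33, adjusted p = 0.366 from limma) and was well above background on 5 control and 4 exposed arrays of that day. The part of these cells in the respiratory chain and glycolysis values was not tested.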

How the data were processed

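Lung RNA of 23 rats was measured on Agilent 1-colour arrays. The deposited scanner files hold spot intensity on a linear scale, background-corrected by Feature Extraction 11.0.1.1 per the labels. The files name 12.0.1.1 for 1 array, that of control rat 4 of D28. The authors also deposited a quantile-normalized table of linear intensity, used as an alternative, and their methods name an unspecified batch correction that was not applied here. The processed signals were taken to log2 and quantile normalized. A probe was kept where its signal passed the 95th percentile of the 308 negative controls on 5 or more arrays (40421 of 45598 probes), and spots and probes of a gene were averaged. Gene names came from the newest annotation among the files. One limma model (limma 3.58.1, R 4.3.3) of the 4 groups, with 19 residual degrees of freedom and no batch term, tested 23032 genes, with Benjamini-Hochberg adjustment over all of them, and 29 genes with missing values were left out. The fit was tested on simulated data. Tables were handled in Python 3.11.15 with pandas 2.3.3 and numpy 2.4.6. The number of arrays limits the precision.

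The members and the lists were chosen with earlier results of these data known. Named genes were the 2 markers, members past the adjusted p, the highest and lowest of each complex, subunits with tissue forms, complex II, and up to 5 genes of each other list past the adjusted p. Members past an unadjusted p of 0.05, without overlap between groups or set beside these were added after their values were seen. The alternatives were other normalizations, background, filters, probe summaries, gene names, variance models, slide or replicate blocks, call rules and leaving out each array.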

Additional observations from a re-analysis of the deposited data

Results flagged for a closer look

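Of 240 groups examined (the named genes in each of the 4 groups), 9 held 1 rat far from the others by Dixon's test, and chance gives about 1 in 20. Among the respiratory chain genes, Ndufaf2 was lowest in exposed rat 6 of D28 (9.07, next 10.03), and Ndufa10 was highest in the same rat (6.53, next 5.27). Without that rat the D28 log2 FC of both genes was closer to 0, as given above. Cox8a was highest in control rat 2 of D0 (15.34, next 15.03), Atp5mc2 was highest in exposed rat 1 of D0 (14.23, next 14.09), and Sdhc was lowest in exposed rat 4 of D0 (11.46, next 11.65). Cox7b2, not well above background, was highest in control rat 3 of D28 (2.45, next 1.99).

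Among the markers of other cells, Aqp5 of type I pneumocytes was lowest in exposed rat 5 of D0 (13.76, next 14.05) and Cav1 was lowest in control rat 1 of D28 (14.80, next 14.97). Tek of endothelium was highest in exposed rat 3 of D28 (14.04, next 13.68).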

How the results depend on the processing

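The count of respiratory chain DEGs on D0 was 1 in the main test, under 16 of 17 other settings and with any 1 array left out (1 to 1). With each probe tested on its own it was 2 probes, of Cox8b and Cox7a1. The other 4 contrasts had 0 DEGs under every setting and with any array left out (0 to 0). Cox8b on D0 ranged from -0.80 to -0.74 under 15 settings, with a limma adjusted p of 0.000806 to 0.0296. With the replicate number as a block (replicate block) it was -0.75 (adjusted p = 0.0185 from limma). The labels do not state that equal numbers pair the rats. Of 33 pairs of equally numbered arrays from different groups, 12 correlated above 0.1 (-0.30 to 0.46). Pairs of unequal numbers were not compared, so these values cannot decide whether rats were paired. The median log2 FC of the respiratory chain genes ranged from -0.069 to -0.044 on D0 (-0.075 to -0.045 with 1 array left out) and from -0.044 to -0.0074 on D28 (-0.055 to -0.011), where the median over all genes was -0.0089 with the slide as a fixed block and -0.010 without exposed rat 3 of D28. Between the days it ranged from -0.028 to 0.011 in control rats (-0.0100 to 0.019), changing sign, and from 0.030 to 0.041 in exposed rats (0.026 to 0.060). Of 71 single values of named respiratory chain genes that were not DEGs, 29 changed sign under some setting, the largest of them 0.14 in size. Among all genes the DEGs of D0 numbered 221 (normexp) to 610 (array weights) against 411, and those of D28 numbered 42 (only the arrays compared) to 263 (slide as a random block) against 174, and 111 without exposed rat 1 of D28. For the other contrasts they numbered 5 to 14 against 7, 97 to 199 against 140 and 28 to 130 against 81. The causes were not tested. With 5 or 6 rats a group, changes of genes with a wide spread were not bounded below the FC limit. Ndufs4 was such a gene, and its signal was also low.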

Other observations

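Beyond the respiratory chain, several markers of lung cells differed between the groups. Lcn2, an antimicrobial protein of neutrophils and injured epithelium, rose on D0 (log2 FC 1.65, SE 0.28, adjusted p = 0.00139 from limma), while the median over all 7 neutrophil markers was -0.061. Rgs5, a pericyte gene, fell on D0 (-0.65, adjusted p = 0.0450 from limma), a call lost under 6 of 15 other settings and with 14 of 23 arrays left out in turn. Cd68, a lysosomal protein of macrophages, had 0.55 on D0 (adjusted p = 0.00293) and 0.42 on D28 (adjusted p = 0.0293 from limma), under a FC of 1.5. Below that FC too, the surfactant protein gene Sftpd had 0.37 on D0 (adjusted p = 0.0469), the type I pneumocyte genes Aqp5 and Cav1 had -0.47 and -0.49 on D0 (adjusted p = 0.0317 and 0.00262), and the endothelial receptor gene Tek had -0.46 on D28 (adjusted p = 0.0246 from limma).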
